A study of Mus musculus with 4 samples.

Results

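The enzymes that write, copy and remove DNA methylation, together with the core of Polycomb repressive complex 2 (PRC2), were followed as 10 genes in mouse fetal liver progenitors. The genes are Dnmt1, Uhrf1, Dnmt3a, Dnmt3b, Tet1, Tet2, Tet3, Ezh2, Suz12 and Eed. They were chosen by name, and the platform annotation gave them 28 probe sets that carry no other gene symbol, out of 18193 genes with such a probe set. Of the 28, 19 were above a floor on low signal (set out below) on all arrays and 5 on none. Total RNA was hybridised to 4 single-colour Affymetrix mouse arrays. The cultures were H-RasV12 (an activated form of a small GTPase), myr-Akt (the kinase AKT1 carrying a myristoyl group, which tethers it to membranes), c-Myc (a transcription factor that promotes growth) and non-transformed. All 4 cultures, the non-transformed one included, were p53-/-, and all grew in 10% serum with dexamethasone, nicotinic acid, 2-mercaptoethanol, ITS supplement, EGF at 20 ng/ml and HGF at 50 ng/ml. The labels do not say whether a transformed culture was a single clone or a pool.

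With 1 array for each group there is no replicate spread, no test and no error on any value below, so each difference is one between arrays. Signals under 100.001, which is 20% of the arrays' common trimmed mean, were set to that floor. A gene counts as higher or lower at a 2-fold difference, and a gene at the floor on 1 side has only a bound. The 3 comparisons with non-transformed cells share 1 array, and a low or high value there moves all of them. Myc, read by 1 probe set, was at 420.6 on the array labelled c-Myc, the lowest of the 4, against 2285 on the non-transformed array. The labels do not say whether this probe set reads the introduced c-Myc, so what the low value says of the label is unknown, and each direction for that array rests on the label. Akt1 had a signal of 2760 in H-RasV12 cells, 2834 in myr-Akt cells, 2991 in cells labelled c-Myc and 1870 in non-transformed cells. Its next probe set gave 862.0, 839.2, 977.0 and 568.3 in the same order. Akt1 was thus not highest on the myr-Akt array. The labels do not say whether these probe sets read the introduced AKT1, so that array too rests on its label. Hras was not analysed here. Of 18 liver progenitor markers, 15 were above the floor in H-RasV12 cells, 7 in myr-Akt cells, 6 in cells labelled c-Myc and 11 in non-transformed cells, with summed signals of 30339, 7797, 11278 and 16097. Alb, Afp and Hnf4a, defining genes of hepatic cells, were above it in H-RasV12 cells and under it on the other 3 arrays. Their H-RasV12 signals were 167.6, 568.3 and 169.1, so Alb and Hnf4a were near the floor there. Foxa2 was above it on all 4 arrays, at 4169, 3082, 1472 and 2821. Dlk1 was highest in cells labelled c-Myc, at 1898, with 262.4 in H-RasV12 cells, 145.1 in myr-Akt cells and 116.7 in non-transformed cells. The list did not move as one, since 9 of its markers were at least 2-fold higher and 2 lower in H-RasV12 than in non-transformed cells. The lower ones were Gpc3, at 311.6 against 3576, and Krt7, at 506.9 against 1620.5. Against the same array, 0 were at least 2-fold higher and 5 lower in myr-Akt cells. In cells labelled c-Myc 1, Dlk1, was higher and 4 were lower. Of 12 mesenchymal markers 12, 9, 8 and 12 were above the floor in the same order of arrays, with summed signals of 107443, 89749, 85015 and 154446, and 4, 7 and 6 were at least 2-fold lower than in non-transformed cells. The median log2 differences of these 12 were -0.39, -1.59 and -1.44, so the list was lower in myr-Akt cells and cells labelled c-Myc than in H-RasV12 cells. Dcn, a fibroblast proteoglycan gene, had 172.2 in H-RasV12 cells against 10469 in non-transformed cells. Vim, Thy1 and Twist1 were higher in H-RasV12 than in non-transformed cells, by less than 2-fold. Pdgfra, Pdgfrb and Thy1 were above the floor in H-RasV12 cells and under it in myr-Akt cells and cells labelled c-Myc. Of 6 mesothelial markers 5, 6, 6 and 6 were above the floor, with summed signals of 10059, 26841, 26643 and 35180, and 5, 1 and 1 were at least 2-fold lower, with a median log2 difference of -2.44 in H-RasV12 cells. Haematopoietic markers above it numbered at most 2 of 9 and endothelial markers at most 1 of 9. The part of these markers in the results was not tested.

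DNA methylation in mammals sits mostly on cytosines of CpG pairs. DNMT3A and DNMT3B place it on unmethylated DNA, DNMT1 copies it to the new strand after replication, and UHRF1 brings DNMT1 to the hemimethylated sites. The TET enzymes oxidise 5-methylcytosine, which begins its removal. PRC2 methylates lysine 27 of histone H3, a mark of silenced developmental genes. EZH2 is its catalytic subunit, SUZ12 holds the complex together, and EED binds the mark itself. In liver, DNMT1 and UHRF1 follow cell division closely, and EZH2 is abundant in fetal progenitors and declines as hepatocytes mature.

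The copying genes and the PRC2 core had their lowest signal in non-transformed cells, whereas Dnmt3a had its lowest in H-RasV12 cells. Uhrf1 was 2.20 times higher in myr-Akt cells and 2.51 times higher in cells labelled c-Myc. Dnmt3b was above the floor in those cultures alone, at least 2.83 and at least 2.72 times higher than in non-transformed cells. Dnmt3a was 2.24 times lower in H-RasV12 cells by its brightest probe set, but its 5 probe sets did not give 1 answer there. No member differed by 2-fold between myr-Akt cells and cells labelled c-Myc.

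**Figure D1:**
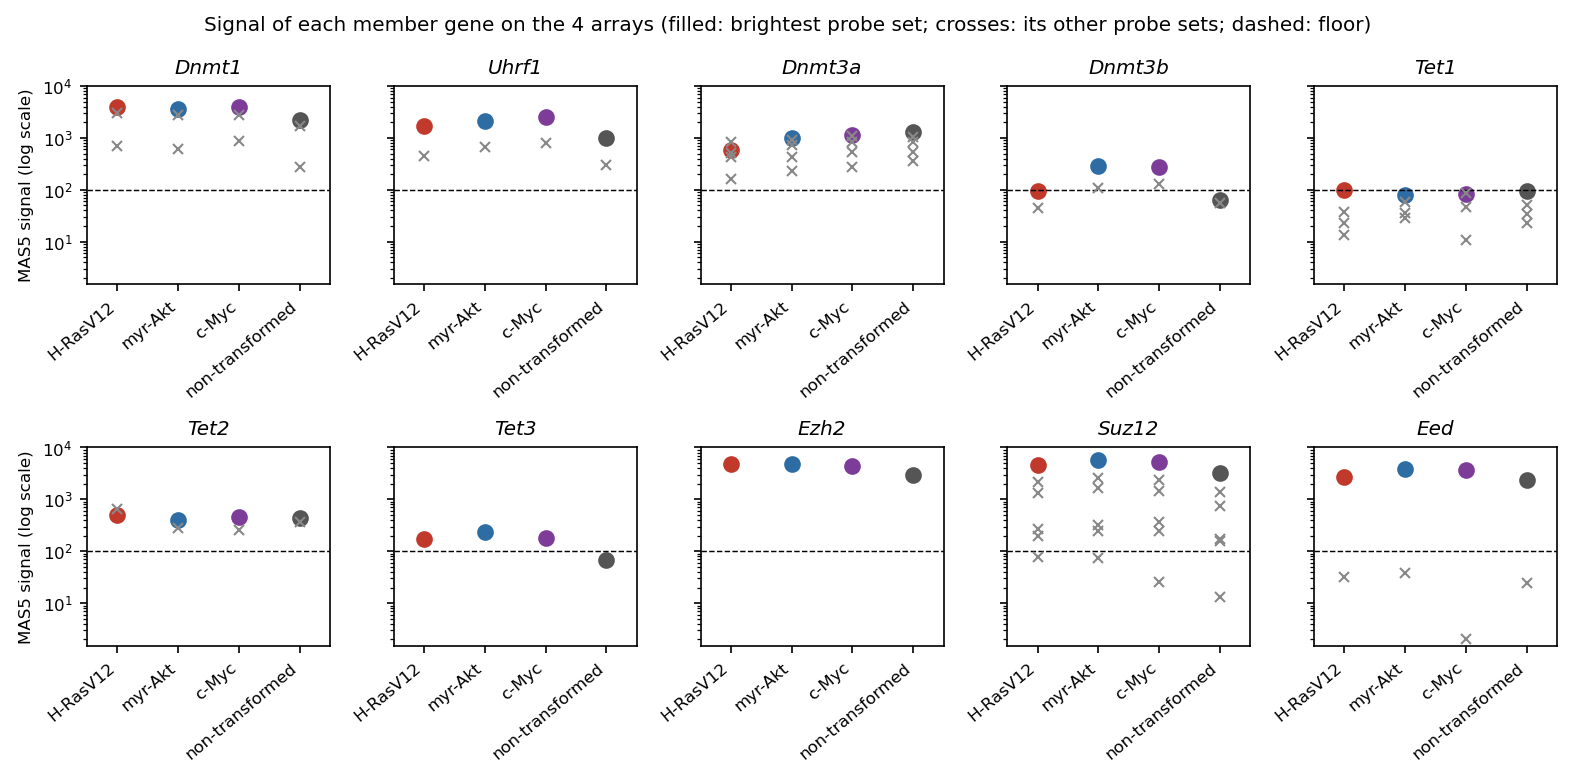
MAS5 signal of each gene (log axis) on the arrays of H-RasV12, myr-Akt, c-Myc and non-transformed cells, 1 array each. Filled points are the probe set with the highest mean over the arrays, crosses the gene's other probe sets, and the dashed line is the floor of 100.001. Tet1 lies at or under the floor on all 4 arrays apart from a signal of 100.3, and Dnmt3b is above it in myr-Akt and c-Myc cells.

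The annotated start regions of 4 members hold a word of the type bound by E2F factors, the regulators that switch on genes of S phase. The words searched were TTTGGCGC, TTTCCCGC, TTTCGCGC and TTTGCCGC on both strands, chosen after the values were seen. None of the words found overlaps another. Windows ran from 250 bases before to 50 bases after each RefSeq start (mouse GRCm38.p6), and all 10 members had at least 1, with 15 windows in all. The stretches below are all the words found, and lie in Dnmt1, Uhrf1, Ezh2 and Suz12. These genes had their lowest signal in non-transformed cells, as did other members without a word. They are written 5′ to 3′ on the gene's strand, with the word in capitals.
Dnmt1, chr9:20952824-20952853, minus strand: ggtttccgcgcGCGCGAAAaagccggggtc
Dnmt1, chr9:20952574-20952601, minus strand: gcggggcagcgTTTGGCGCgggctgtgc
Uhrf1, chr17:56304117-56304146, plus strand: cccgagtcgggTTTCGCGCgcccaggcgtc
Ezh2, chr6:47595009-47595038, minus strand: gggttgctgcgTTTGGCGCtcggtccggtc
Suz12, chr11:79992876-79992905, plus strand: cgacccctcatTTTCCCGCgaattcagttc
The first Dnmt1 stretch carries TTTCGCGC on the other strand. Its word begins 219 bases before the start, that of Uhrf1 185 bases before and that of Suz12 219 bases before. The second Dnmt1 word begins at base 34 and the Ezh2 word at base 4, counting the start base as 1. A word was present in 744 of all 32851 windows (2.26%), and in 4.90% of the 3469 windows with at least 31 CpG pairs, the number in the Ezh2 window. By gene, 704 of 27025 (2.6%) had a word in at least 1 window. Eed and the TET and Dnmt3 genes had no such word in their windows. By their brightest probe sets, Eed (2323), Tet3 (66.5) and Dnmt3b (62.2) also had their lowest signal in non-transformed cells. Those of Tet3 and Dnmt3b were under the floor. Members with and without a word thus had this pattern, and the part of E2F factors in it was not tested. A match describes letters in a window and shows no binding.

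The maintenance genes were examined first. Dnmt1, the copying methyltransferase, had a signal of 3986.5 in H-RasV12 cells, 3584 in myr-Akt cells, 3942 in cells labelled c-Myc and 2254 in non-transformed cells. The 3 transformed cultures lay close together and the non-transformed one below them. The log2 differences from non-transformed cells were 0.82, 0.67 and 0.81, short of 2-fold. The second probe set gave 0.84, 0.71 and 0.73. The third and dimmest, at 694.1, 614.0 and 883.1 against 278.0, gave 1.32, 1.14 and 1.67, past 2-fold in each. Both of these have identifiers ending in _x_at, which can bind transcripts of other genes too.

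Uhrf1, the partner that recognises hemimethylated CpG, had a signal of 1703 in H-RasV12 cells, 2162 in myr-Akt cells, 2471 in cells labelled c-Myc and 984.6 in non-transformed cells. The order of the 4 arrays was the same by its second probe set, at 457.5, 670.3, 794.6 and 298.7. The log2 differences from non-transformed cells were 0.79, 1.13 and 1.33 by the first probe set and 0.62, 1.17 and 1.41 by the second. Of all 10679 genes above the floor on at least 1 array, 3.17% had a difference at least as high as that of Uhrf1 in the myr-Akt comparison and 1.53% in the c-Myc comparison. Between transformed cultures, Uhrf1 was lower in H-RasV12 cells than in cells labelled c-Myc by 0.54 on the log2 scale.

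The de novo enzymes differed from the maintenance genes. Dnmt3b had a signal of 94.4 in H-RasV12 cells, 282.9 in myr-Akt cells, 272.3 in cells labelled c-Myc and 62.2 in non-transformed cells. It was therefore under the floor on the first and last of these arrays, and its differences are bounds. The second probe set followed the same split at lower signal, with 44.0, 107.0, 130.5 and 56.1, and could show no more than 0.10 and 0.38 above the floor in myr-Akt cells and cells labelled c-Myc. Against H-RasV12 cells the bounds were the same in size, with Dnmt3b at least 2.83 times lower in H-RasV12 than in myr-Akt cells and at least 2.72 times lower than in cells labelled c-Myc. All of these are dim signals, and both probe sets end in _a_at, an identifier for probes shared by transcripts of 1 gene.

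Dnmt3a, the main de novo enzyme of somatic cells, had a signal of 579.8 in H-RasV12 cells, 982.7 in myr-Akt cells, 1140 in cells labelled c-Myc and 1300.5 in non-transformed cells by its brightest probe set. The H-RasV12 array was the lowest, with log2 differences from non-transformed cells of -1.17, -0.40 and -0.19. In the H-RasV12 comparison 4.81% of measured genes were at least as low. Probe set 1460324_at gave a larger H-RasV12 difference, with 163.5 against 539.1 in non-transformed cells (-1.72), and 1423065_at gave -0.99, with 429.1 against 851.2. Probe set 1423066_at gave -0.37, with 816.7 against 1053. Probe set 1423064_at went the other way, with 505.6 in H-RasV12 cells against 351.6 in non-transformed cells (0.52).

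The annotation lists the same source accession for all 5 Dnmt3a probe sets. Over them the SD of the log2 difference was 0.86 in the H-RasV12 comparison, 0.15 in the myr-Akt comparison and 0.15 in the c-Myc comparison. For 1680 genes with at least 3 probe sets above the floor on both arrays, the median SD in the H-RasV12 comparison was 0.20, and 0.60% had one as large as that of Dnmt3a. Set against myr-Akt cells, the H-RasV12 differences ran from -1.42 to 1.11 over the same 5 probe sets. The mean over them was -0.74 in the H-RasV12 comparison with non-transformed cells, short of 2-fold, so the call rests on the choice of the brightest probe set. No value here tells which transcript each probe set reads.

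**Figure D2:**
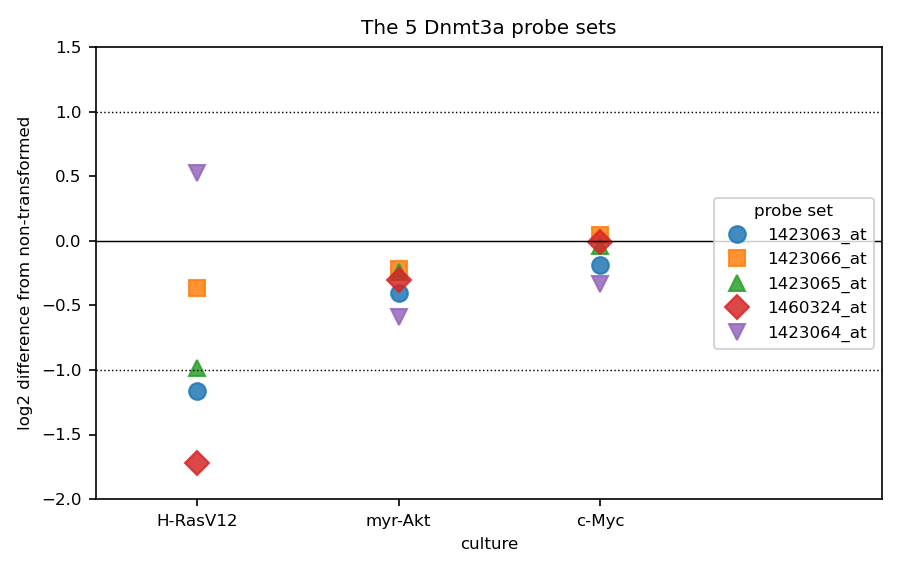
Log2 difference from non-transformed cells of the 5 Dnmt3a probe sets (vertical axis) in H-RasV12, myr-Akt and c-Myc cells. Points are single array differences and dotted lines mark 2-fold. In H-RasV12 cells the points spread from -1.72 to 0.52, in myr-Akt cells from -0.59 to -0.22, and in c-Myc cells from -0.33 to 0.05.

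The TET genes were dim or differed between their probe sets. Tet3, read by 1 probe set, had a signal of 170.0 in H-RasV12 cells, 230.3 in myr-Akt cells, 181.1 in cells labelled c-Myc and 66.5 in non-transformed cells. It was under the floor on the non-transformed array alone, and was at least 1.70, 2.30 and 1.81 times higher in the transformed cultures. Tet2 had 500.1, 392.2, 448.1 and 428.1 in the same order of arrays by its brighter probe set, with differences of 0.22, -0.13 and 0.07 from non-transformed cells. Its other probe set, 1438781_at, spread more, with 640.1 in H-RasV12 cells, 280.1 in myr-Akt cells, 261.6 in cells labelled c-Myc and 370.7 in non-transformed cells. By that one Tet2 was 1.19 higher on the log2 scale in H-RasV12 than in myr-Akt cells and 1.29 higher than in cells labelled c-Myc, while the brighter one gave 0.35 and 0.16. Tet1, the TET enzyme of pluripotent cells, had 4 probe sets, and 1 signal of their 16, 100.3 in H-RasV12 cells, passed the floor. Tet1 thus has no measured difference.

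The PRC2 core genes showed differences short of 2-fold by their brightest probe sets, and dimmer probe sets of Suz12 passed it. Ezh2, with 1 probe set, had a signal of 4759 in H-RasV12 cells, 4721 in myr-Akt cells, 4478 in cells labelled c-Myc and 3012 in non-transformed cells. The transformed cultures were within 0.09 of one another on the log2 scale and 0.66, 0.65 and 0.57 above the non-transformed one. Suz12 had 4662.5, 5647, 5316 and 3286 by its brightest probe set, with differences of 0.50, 0.78 and 0.69. Over its 5 probe sets above the floor on all arrays the differences ran from 0.32 to 0.81 in H-RasV12 cells, from 0.66 to 1.16 in myr-Akt cells and from 0.61 to 1.10 in cells labelled c-Myc. Past 2-fold were 1452364_at in myr-Akt cells, at 1.16, and 1449661_at in cells labelled c-Myc, at 1.10. Eed had 2677, 3797, 3655 and 2323, with differences of 0.21, 0.71 and 0.65, and its second probe set was under the floor throughout. Eed in H-RasV12 cells was thus nearer to non-transformed cells than to the other transformed cultures, being 0.50 lower than in myr-Akt cells.

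**Figure D3:**
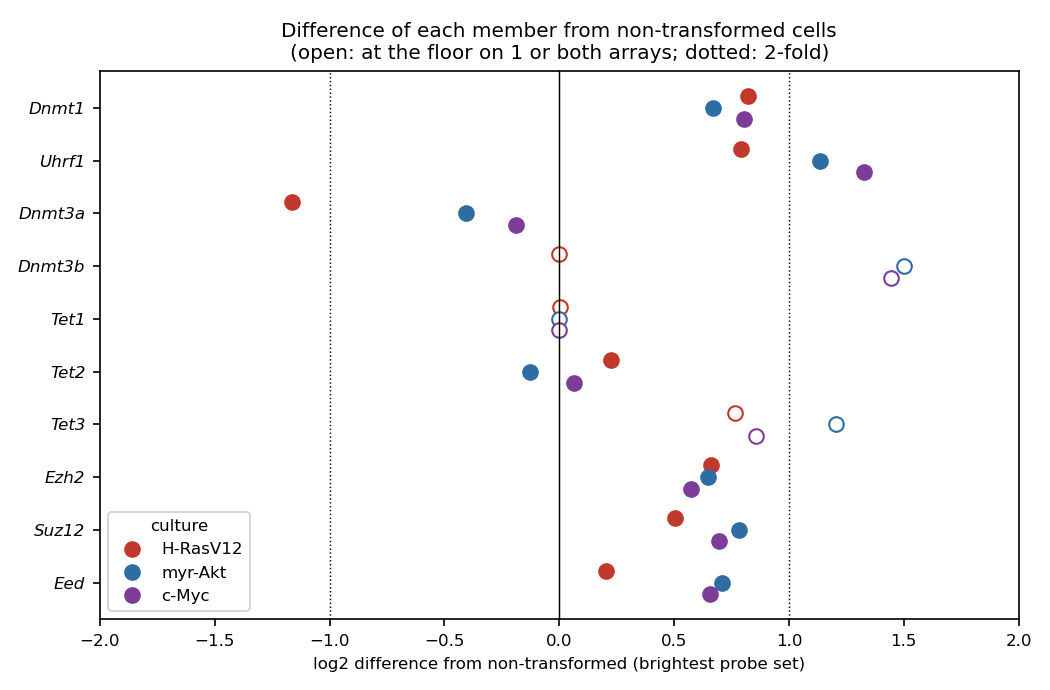
Log2 difference of each gene from non-transformed cells (horizontal axis, brightest probe set) in H-RasV12, myr-Akt and c-Myc cells, 1 array each. Open points are bounds or genes at the floor on both arrays, and dotted lines mark 2-fold. Uhrf1 at 1.13 and 1.33 and Dnmt3a at -1.17 are the filled points past the dotted lines.

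Counted over the 10 genes, 0 were at least 2-fold higher and 1, Dnmt3a, was at least 2-fold lower in H-RasV12 than in non-transformed cells, where 2.08% of all measured genes were higher and 6.27% lower. In myr-Akt cells 3 were higher (Dnmt3b, Uhrf1 and Tet3) and 0 lower, with 4.9% and 12.7% of all genes. In cells labelled c-Myc 2 were higher (Dnmt3b and Uhrf1) and 0 lower, with 4.42% and 11.3% of all genes. The median log2 difference of the 10 was 0.36, 0.69 and 0.67 in these comparisons, and over all measured genes it was 0.003, -0.02 and 0. Between transformed cultures, Dnmt3b alone passed 2-fold, lower in H-RasV12 cells than in myr-Akt cells (4.38% of all genes lower and 9.35% higher) and than in cells labelled c-Myc (5.11% lower and 8.76% higher). Between myr-Akt cells and cells labelled c-Myc, 3.54% of genes passed in either direction. With the floor raised to 40%, Dnmt3b and Tet3 no longer passed in any of these comparisons, and Uhrf1 did in the same 2.

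Most genes of dividing cells were above non-transformed cells too. Of 26 S-phase genes measured, 2 were at least 2-fold higher in H-RasV12 cells, 9 in myr-Akt cells and 7 in cells labelled c-Myc, with 0 lower in each, and their medians were 0.51, 0.80 and 0.76. Above 0 were 23, 25 and 25 of them. The E2F genes of this list differed. E2f2 had 161.2, 599.0 and 376.2 in those cultures against 83.2 in non-transformed cells, which is under the floor, so its differences are bounds. Its second probe set was under the floor in H-RasV12 and non-transformed cells. That one gave bounds of 0.97 in myr-Akt cells and 0.72 in cells labelled c-Myc. E2f1 had 580.6, 575.6 and 653.8 against 631.9, with differences of -0.12, -0.13 and 0.05. Gins1, of the replicative helicase, had 1910, 2405 and 2376 against 920.8. Of 19 mitosis genes 0, 2 and 2 were at least 2-fold higher, with medians of 0.39, 0.66 and 0.74, and 18, 19 and 19 were above 0. The part of cell division in the levels of Dnmt1, Uhrf1 and the PRC2 core was not tested. Nor was that of the cell mixture, since in RNA of a whole culture fewer cells of a type and less RNA per cell cannot be told apart.

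Among 10 measured partners of DNA methylation, 0, 1 and 2 passed 2-fold upward in H-RasV12 cells, myr-Akt cells and cells labelled c-Myc, none passed it downward, and the medians were 0.45, 0.47 and 0.63. Hells, a remodeller needed for methylation of repeats, had a signal of 2145, 3106 and 2866 against 1332 in non-transformed cells, with log2 differences of 0.69, 1.22 and 1.11. Its 2 dimmer probe sets did not pass 2-fold, giving 0.39, 0.57 and 0.37, and 0.27, 0.19 and 0.05 as bounds. Cdca7, which recruits HELLS, had 912.1, 1348.5 and 1534 against 710.7. Dnmt3l, the germline cofactor of the DNMT3 enzymes, and Dppa3, which restrains UHRF1 in the oocyte, were under the floor on all arrays. By profile over the 4 arrays, the genes nearest to Uhrf1 were Noa1, Atad3a and Elovl6, at root mean square distances of 0.02, 0.03 and 0.03 on the log2 scale among 8769 genes. Those nearest to Dnmt3a, by its brightest probe set, were Klf10, Ppp1r12b and Kdm7a, at 0.04, 0.07 and 0.07. Further genes lay nearly as close to each, so the named ones are not particular to Uhrf1 or Dnmt3a.

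Among readers of methylated CpG, 2 zinc finger genes passed 2-fold and the MBD genes did not. Of 7 measured, 1, 2 and 2 were at least 2-fold lower in H-RasV12 cells, myr-Akt cells and cells labelled c-Myc. Zbtb4, a repressor that binds methylated CpG, had a signal of 634.5, 253.9 and 287.8 in the transformed cultures against 1450 in non-transformed cells, with log2 differences of -1.19, -2.51 and -2.33. Its second probe set gave -1.24, -1.93 and -1.58. Zbtb38, a related protein, had 664.8, 240.4 and 196.1 against 531.8, and its other probe sets were under the floor. Mbd1 was lower by less than 2-fold, with 1380, 1591 and 1585 against 2434.5.

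In the list of active demethylation, 3, 2 and 3 of 11 measured genes were at least 2-fold lower and 0, 0 and 1 higher. Cxxc5, which encodes a CXXC zinc finger protein, had a signal of 2236 in H-RasV12 cells, 894.4 in myr-Akt cells, 575.7 in cells labelled c-Myc and 1709 in non-transformed cells. The stress genes of the Gadd45 family, whose role in demethylation is debated, differed among cultures. Gadd45b was low in H-RasV12 cells, at 951.4, with 3751 in myr-Akt cells, 4071 in cells labelled c-Myc and 3903 in non-transformed cells. Gadd45g was lower in all transformed cultures, with 1412.5, 1005 and 940.7 against 3512. Gadd45a had 727.6, 1480 and 531.5 against 1694. The gene at least 2-fold higher was Parp1, at 3211 in cells labelled c-Myc against 1583 in non-transformed cells.

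Polycomb genes outside the core came next. Of 9 PRC2 partners measured, 0, 1 and 1 passed 2-fold upward and none downward, and the medians were 0.31, 0.24 and 0.21. The one past 2-fold was Lcor, which encodes a PRC2-associated corepressor, with 767.7, 1395 and 1442 against 673.3. Ezh1, the catalytic alternative to Ezh2 in resting cells, had 157.7, 230.8 and 293.2 against 253.2 and did not follow Ezh2. Of 18 genes of Polycomb repressive complex 1, which binds the H3K27 mark, 0, 0 and 1 were at least 2-fold higher and 0, 1 and 0 lower, with medians of -0.03, -0.10 and -0.10. Cbx2 was the higher gene, at 598.2 in cells labelled c-Myc against 275.0, and Cbx6 the lower, at 884.3 in myr-Akt cells against 1864. The other Cbx6 probe set, at 856.3 against 1595, gave -0.90, short of 2-fold. The other Cbx2 probe set was under the floor on all arrays. Among 9 opponents of the mark, including its demethylases Kdm6a and Kdm6b, none passed 2-fold, and the medians were 0.25, 0.52 and 0.59. Of 11 genes of H3K9 methylation none passed it either, with medians of 0.16, 0.42 and 0.29. That list pools genes that place, bind and remove the mark, Kdm1a and Kdm4a being among the last.

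**Figure D4:**
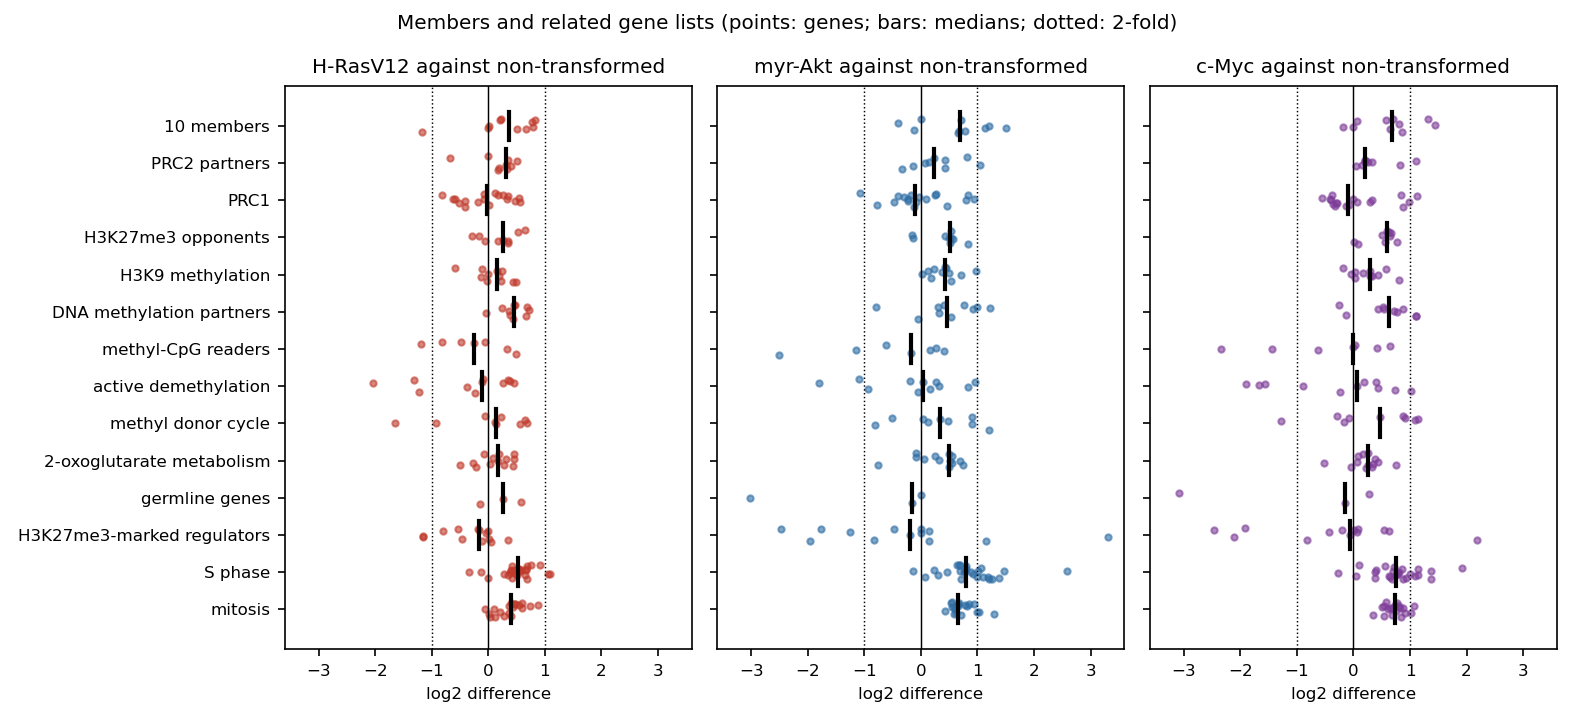
Log2 difference from non-transformed cells (horizontal axis) of the 10 genes and of related lists in H-RasV12, myr-Akt and c-Myc cells. Points are genes above the floor on at least 1 array, bars are medians and dotted lines mark 2-fold. The medians of the 10 genes are 0.36, 0.69 and 0.67. Several lists lie near them: S phase at 0.51, 0.80 and 0.76, and mitosis at 0.39, 0.66 and 0.74. So do DNA methylation partners, at 0.45, 0.47 and 0.63, and opponents of the H3K27 mark, at 0.25, 0.52 and 0.59. PRC1 lies at -0.03, -0.10 and -0.10.

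The supply of cofactors was looked at last. S-adenosylmethionine is the methyl donor of both enzyme systems, and 2-oxoglutarate is needed by the TET enzymes. Of 9 measured genes of the methyl donor cycle, 0, 1 and 2 were at least 2-fold higher and 1, 0 and 1 lower. Ahcy, which clears the inhibitor S-adenosylhomocysteine, had a signal of 7642, 13009 and 14842 in the transformed cultures against 6939 in non-transformed cells. Srm, which makes spermidine, had 7681, 11359 and 10828 against 4904. Nnmt, which uses up the donor by methylating nicotinamide, was lower, with 1299, 2345 and 1678 against 4095. Of 13 genes around 2-oxoglutarate, 0 passed 2-fold in any of the 3 comparisons, with medians of 0.17, 0.50 and 0.26.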

How the data were processed

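The authors deposited 1 linear intensity per probe set and array, computed by MAS5 per the submitters' processing notes, with no version, detection call or filter stated. With 2% trimmed from either end, each of the 4 arrays had a mean of 500.003. Signals below 20% of that mean were raised to this floor before taking log2. Of 45101 probe sets, 64 were controls, and 34945 others had 1 gene symbol, 932 several and 9160 none. The brightest single-symbol probe set stood for each gene, and other probe sets of members are printed. Of 18193 genes, 10679 passed the floor on 1 or more arrays and formed the background. Named beyond the members are up to 4 genes per list that differed by 2-fold or more from non-transformed cells, and the 3 genes nearest in centred profile to a member spanning at least 1 on the log2 scale. Ezh1, Mbd1, E2f1, Brdt, Rhox5, marker genes, Parp1, Dnmt3l and Dppa3 were added after their values were seen. Members and lists were chosen with earlier results of these data known. List members with no single-symbol probe set were not analysed here. The code for the calls was run on simulated data, with changes well past 2-fold planted in brighter probe sets. The noise there was an assumed SD of 0.2 on the log2 scale. That setting says nothing of dim signals or of differences near 2-fold. Tools were Python 3.11.15, pandas 2.3.3 and numpy 2.4.6. Promoter sequences are from RefSeq, GRCm38.p6.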

Additional observations from a re-analysis of the deposited data

How the results depend on the processing

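The number of genes past 2-fold among the 10 was recomputed under 8 alternatives to the floor of 20% of the trimmed mean and the brightest probe set in 6 comparisons. With the floor lowered to 10% of that mean, 2 genes passed in H-RasV12 against non-transformed cells, since Tet3 then reached 1.35. With it raised to 40%, 1 passed in myr-Akt cells, 1 in cells labelled c-Myc and 0 in H-RasV12 against myr-Akt or c-Myc cells, since Dnmt3b and Tet3 lie near the floor. The mean or the median log2 signal over all probe sets of a gene, those at the floor included, was taken on each array before the difference. With either, 0 passed in H-RasV12 against non-transformed, myr-Akt or c-Myc cells, Dnmt3a being at -0.74 and -0.75 against non-transformed cells. The median there set 505.6 of 1423064_at in H-RasV12 cells against 851.2 of 1423065_at in non-transformed cells, which are different probe sets. With the mean, 2 passed in cells labelled c-Myc, but with Dnmt1 at 1.07 in place of Dnmt3b. With the median, Suz12 took the place of Dnmt3b in myr-Akt cells (1.03) and in cells labelled c-Myc (1.02), with the counts at 3 and 2. These are differences of median signals, not medians of the probe set differences. For Suz12 they average 1452364_at and 1449661_at, at 1.16 and 0.90 in myr-Akt cells and 0.94 and 1.10 in cells labelled c-Myc. Leaving out probe sets ending in _s_at, _x_at or _a_at left 8 genes, of which 1 passed in cells labelled c-Myc and 0 in H-RasV12 against myr-Akt or c-Myc cells; in myr-Akt cells 3 passed, with Suz12 at 1.16 in place of Dnmt3b. All other counts, those under quantile normalization, median scaling and a pseudocount of 50 included, were within 1.5 times. Of 468 single-gene values, 451 moved by less than 1.5 times, 17 moved by more, all of Dnmt3b or Tet3, and 0 that had passed 2-fold changed sign. The number of arrays, 1 a group, limits every value. No paired analysis was possible because each group holds 1 array.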

Other observations

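Genes that these marks are known to silence were looked at as well. Of 21 germline genes with a probe set, which promoter methylation keeps silent in somatic cells, 18 were under the floor on all 4 arrays. Ddx4, a helicase of germ cells read here by 1 probe set, had the highest signal of the other 3, with 1269 in H-RasV12 cells, 104.2 in myr-Akt cells, 70.3 in cells labelled c-Myc and 847.6 in non-transformed cells. It was thus 8.13 times lower in myr-Akt than in non-transformed cells, and at least 8.48 times lower in cells labelled c-Myc. The other two were dim. Brdt, a testis bromodomain gene, passed the floor in non-transformed cells alone, at 111.1. Rhox5, a reproductive homeobox gene, passed it in H-RasV12 cells at 120.2 and in cells labelled c-Myc at 121.0, with 64.4 in myr-Akt cells and 22.1 in non-transformed cells.

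Of 29 developmental regulators and cell cycle inhibitors that often carry the PRC2 mark, 13 were measured, and 0, 2 and 1 were at least 2-fold higher and 2, 4 and 3 lower in H-RasV12 cells, myr-Akt cells and cells labelled c-Myc than in non-transformed cells. The largest difference with both arrays above the floor was that of Cdkn1c, an imprinted inhibitor of the cell cycle, which had 91.1 in H-RasV12 cells, 1016 in myr-Akt cells and 467.0 in cells labelled c-Myc against 102.7 in non-transformed cells. It was thus 9.90 times higher in myr-Akt cells and 4.55 times higher in cells labelled c-Myc. The non-transformed signal of Cdkn1c lies barely above the floor of 100.001, so both folds rest on a value near it. A single probe set reads the gene. Cdkn2b, another such inhibitor, had 4598, 1161.5 and 1203 against 4539. Pax3, a factor of neural crest and muscle, had 510.6 in H-RasV12 cells, was under the floor in the other transformed cultures at 66.8 and 24.9, and had 554.7 in non-transformed cells. Its other 2 probe sets showed the same split. Lhx9, a gonad and limb factor, had 256.3, 131.4 and 104.2 against 448.0. No measurement of methylation was made on these arrays.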
